A study of Homo sapiens with 6 samples.

Results

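The genes described here are 55 regulators of the cell division cycle: cyclins, cyclin-dependent kinases (CDKs) and their inhibitors, Polo-like and Aurora kinases, regulators of anaphase, and the E2F and pocket proteins. They were taken by gene name from tables of 29638 gene rows, and each name matched 1 row. The samples are AC16 cells, an established human line made by fusing adult ventricular heart muscle cells with SV40-transformed fibroblasts. All cells carry the label wild type (WT). The groups are PA, with 3 libraries, and control, with 3 libraries given ethanol, the vehicle. The treatment label reads palmitelaidic acid, a trans-monounsaturated fatty acid, whereas the series title speaks of palmitic acid, the saturated acid of the same chain length. The treatment is therefore called PA. The sources used here give neither dose nor time of exposure. All libraries come from 1 line, and SV40 large T antigen, a viral protein that binds pocket proteins, is part of how such fibroblasts are transformed.

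Expression was given as RPKM, which are reads scaled to transcript length and library size, so that levels can be compared between genes. RPKM sums lay between 733025 and 881369. The number of reads is unknown, but the spacing of low values placed the libraries' depths, each relative to the others, between 0.924 and 1.12. The labels do not say whether replicate libraries stem from separate cultures. The p-values thus reflect only how these libraries vary, and that variation may be technical. Markers of the labelled cell type were nearly absent: of 12 cardiomyocyte markers 11 were listed and 1 reached a mean of 1 RPKM, TNNI3, the cardiac inhibitory troponin, while TNNT2, MYH6, MYH7, ACTN2, MYL2, NPPA, NPPB, RYR2, PLN and MYBPC3 stayed below it. Their summed levels were 3.75 to 4.69 RPKM in PA and 1.25 to 3.23 RPKM in control, and TNNI3 rose, at 3.32, 3.99 and 2.60 RPKM in PA against 0.61, 1.39 and 0.74 RPKM in control (log2 fold change 1.18, limma adjusted p = 0.0288). Of 10 fibroblast markers, 9 reached that level, with summed levels of 2471 to 2567 RPKM in PA and 2683 to 3189 RPKM in control. VIM (vimentin), at a mean of 2198 RPKM, made up most of that sum. Of the 9, 8 had negative log2 fold changes, and COL3A1 (-1.37, limma adjusted p = 0.0073) and FAP (-0.74, limma adjusted p = 0.0281) fell. Summed endothelial markers lay at 56.6 to 61.2 RPKM in PA and 28.1 to 41.3 RPKM in control, and summed leukocyte markers at 65.6 to 76.4 RPKM in PA and 44.0 to 55.1 RPKM in control, and TIE1, EGFL7 and CD14 among them rose. The part of these shifts in the results below was not tested. Of 8 endothelial markers 7 were listed and 2 reached a mean of 1 RPKM, and of 8 leukocyte markers 2 did. The defining markers CDH5, VWF and KDR of endothelium and PTPRC and CD3E of leukocytes stayed below it.

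Cells enter division when cyclin D with CDK4 or CDK6, and then cyclin E with CDK2, phosphorylate the pocket proteins and free the E2F factors, which switch on genes for S phase. Later the MuvB core with B-MYB and FOXM1 switches on a second wave, which holds cyclin B, CDK1, the Polo-like and Aurora kinases and the anaphase machinery. The anaphase-promoting complex (APC/C) then destroys cyclin B and securin and ends mitosis. Adult heart muscle cells have largely left this cycle, whereas a transformed line such as AC16 divides in culture. In bulk RNA, fewer cells in a phase and less of a transcript in each cell cannot be told apart.

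PA libraries held less RNA of a few mitotic genes and of 1 pocket protein, and more cyclin E1. PLK1 and AURKA, both mitotic kinases, fell, as did ASPM, a spindle pole protein, and ANLN (anillin), a scaffold of the contractile ring. RBL1, which encodes the pocket protein p107, fell too. CCNE1, which encodes cyclin E1, rose. These 6 were the members past an adjusted p of 0.05 in limma, a linear model fitted across all 14159 genes with a mean of at least 1 RPKM. Of 54 members tested, 5 were lower and 1 higher in PA, where 4.81% of all genes tested passed in either direction, 1.97% lower and 2.84% higher. CCND2, which encodes cyclin D2, was left out by the filter and was listed at 0 to 0.01 RPKM in PA and 0.01 to 0.04 RPKM in control.

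RefSeq promoter windows (build GRCh38.p14), running from 250 bases before to 50 bases after a gene's start, were matched by symbol for 42 of the 55 members. CCND1, CCND2, CCNE2, CDK2, CDKN1C, E2F8, FOXM1, WEE1, PKMYT1, AURKA, BIRC5, TPX2 and UBE2C had no entry. 3 sets of letters were searched on both strands. TTTGAA are the letters of the cell cycle genes homology region (CHR), which the MuvB complex is known to read, and CCAAT is the box read by NF-Y. The third set, TTTCCCGC, TTTGGCGC, TTTCGCGC and TTTGCCGC, are forms of the E2F site. No 2 matches overlap in the stretches printed here. The sequences below show the 150 bases before the start, 5′ to 3′ on the gene's strand, with matches in capitals. The first 5 belong to the members past the threshold that have an entry, and the last 3 to mitotic members that did not pass, for comparison.
PLK1, chr16:23678739-23678888, plus strand: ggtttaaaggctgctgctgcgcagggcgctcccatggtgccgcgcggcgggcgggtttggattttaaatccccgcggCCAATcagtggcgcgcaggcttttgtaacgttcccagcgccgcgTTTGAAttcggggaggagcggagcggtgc
ASPM, chr1:197146670-197146819, minus strand: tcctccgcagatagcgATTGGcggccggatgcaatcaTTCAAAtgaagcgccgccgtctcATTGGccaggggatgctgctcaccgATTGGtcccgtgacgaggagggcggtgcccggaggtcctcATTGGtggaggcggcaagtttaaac
ANLN, chr7:36389712-36389861, plus strand: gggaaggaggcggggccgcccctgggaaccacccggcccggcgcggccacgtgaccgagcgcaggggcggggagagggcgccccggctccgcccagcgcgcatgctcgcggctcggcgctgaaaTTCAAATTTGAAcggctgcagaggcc
RBL1, chr20:37095998-37096147, minus strand: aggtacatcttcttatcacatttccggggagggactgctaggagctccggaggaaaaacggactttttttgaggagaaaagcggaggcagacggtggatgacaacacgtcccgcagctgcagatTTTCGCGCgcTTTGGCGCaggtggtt
CCNE1, chr19:29811841-29811990, plus strand: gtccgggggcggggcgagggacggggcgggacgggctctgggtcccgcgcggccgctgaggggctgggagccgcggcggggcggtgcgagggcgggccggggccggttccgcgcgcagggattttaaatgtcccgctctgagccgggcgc
CCNB1, chr5:69167000-69167149, plus strand: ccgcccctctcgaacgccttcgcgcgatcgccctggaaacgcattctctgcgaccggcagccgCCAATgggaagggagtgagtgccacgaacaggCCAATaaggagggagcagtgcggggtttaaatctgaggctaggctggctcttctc
CCNB2, chr15:59104996-59105145, plus strand: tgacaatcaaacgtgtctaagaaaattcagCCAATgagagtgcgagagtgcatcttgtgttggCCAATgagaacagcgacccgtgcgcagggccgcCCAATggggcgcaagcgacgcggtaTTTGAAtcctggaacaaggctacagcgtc
CDC20, chr1:43358831-43358980, plus strand: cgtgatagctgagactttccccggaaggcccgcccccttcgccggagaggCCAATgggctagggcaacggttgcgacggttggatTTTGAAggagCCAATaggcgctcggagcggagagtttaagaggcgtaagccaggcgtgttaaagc

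PLK1, ASPM and ANLN, which fell, carry CHR letters in these stretches, with those of PLK1 starting 29 bases before the start. RBL1, which also fell, carries 2 E2F matches and no CHR letters. CCNE1, which rose, carries none of the letters searched in its window of 300 bases. CCNB2 and CDC20 carry CHR letters as PLK1 does, and neither passed the test.

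Counted by gene over any listed window, CHR letters were in 16 of 21 G2/M members with an entry (76.2%) and in 2 of 15 G1/S members (13.3%), beside 13.4% of the 9770 tested genes with an entry. CCAAT was in 20 of 21 G2/M members (95.2%) and 8 of 15 G1/S members (53.3%), beside 43.4% of tested genes. E2F letters were in 1 of 21 G2/M members (4.76%) and 6 of 15 G1/S members (40.0%), beside 6.95% of tested genes. Within the G2/M members the median log2 fold change was -0.22 for the 16 with a match and -0.17 for the 5 without. Of the 6 G1/S members with E2F letters 5 had negative log2 fold changes, with a median of -0.15, against 3 of 9 without, with a median of 0.16. Neither split was tested, and neither took transcript length into account. Across the 20 tested G1/S members log2 fold change went with length, at a Spearman's rho (rank correlation) of -0.59. A match is only a run of letters and shows no binding. Only the letters listed were searched, so a gene without a match may hold another form of the site.

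**Figure D1:**
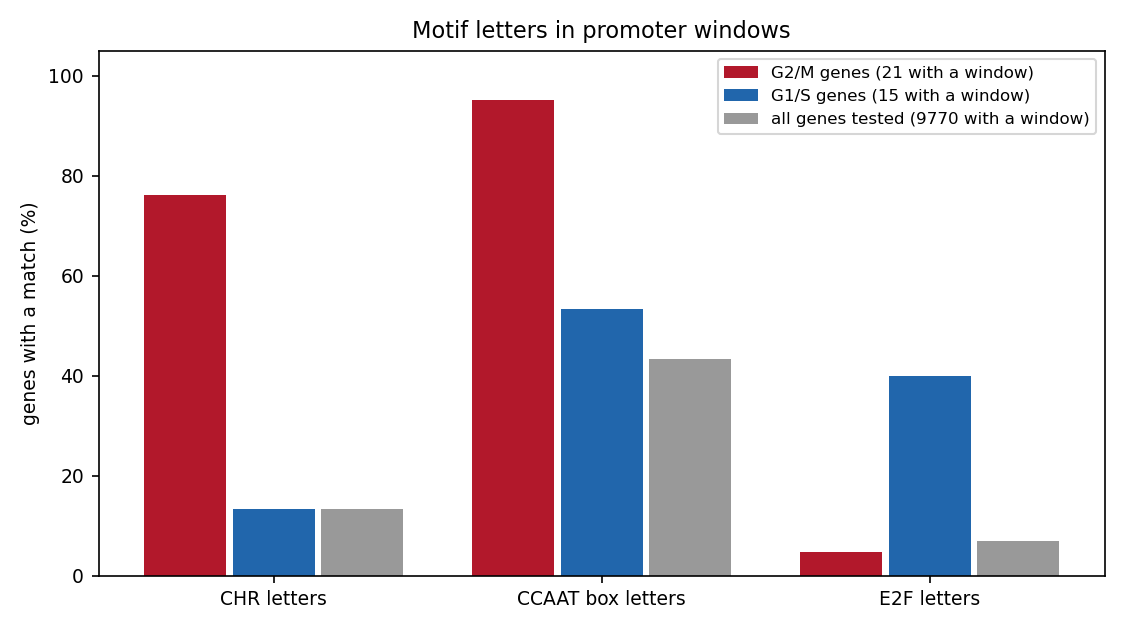
Share of genes (%, y axis) whose promoter window holds the CHR, CCAAT or E2F letters, for G2/M genes, G1/S genes and all genes tested. The CHR bar of the G2/M genes stands at 76.2%, against 13.3% for G1/S genes and 13.4% for all genes tested.

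PLK1, the Polo-like kinase that drives mitotic entry and spindle assembly, was at 55.6, 51.4 and 46.2 RPKM in the PA libraries, against 88.2, 90.2 and 74.5 RPKM in the control libraries. The groups did not overlap. Its means were 51.1 ± 4.74 RPKM in PA and 84.3 ± 8.56 RPKM in control (SD, n = 3 each), and its log2 fold change was -0.71 ± 0.12 (SE, limma adjusted p = 0.0286). All fold changes here compare log2(RPKM + 1), a scale that understates the change of low genes.

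AURKA, the Aurora kinase of the spindle poles, was at 117.1, 111.4 and 110.4 RPKM in PA and 167.0, 168.8 and 160.2 RPKM in control. Both groups were tight and lay far apart, with a log2 fold change of -0.55 ± 0.09 (limma adjusted p = 0.0279). ASPM, which focuses spindle poles, was at 10.3, 10.7 and 13.9 RPKM in PA and 20.4, 18.6 and 23.7 RPKM in control. Its log2 fold change of -0.80 ± 0.15 (limma adjusted p = 0.0325) was the lowest among the 54 members tested.

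ANLN, anillin, was at 89.8, 110.4 and 109.9 RPKM in PA and 145.3, 141.8 and 161.9 RPKM in control. Its log2 fold change was -0.53 ± 0.12 (limma adjusted p = 0.0475). RBL1, the pocket protein p107, was at 13.5, 12.3 and 11.3 RPKM in PA and 19.9, 16.2 and 21.0 RPKM in control, with a log2 fold change of -0.58 ± 0.13 (limma adjusted p = 0.0478). ANLN and RBL1 thus lay just under the threshold, with no overlap between the groups.

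CCNE1, the cyclin that activates CDK2 for S phase entry, was at 6.60, 6.21 and 7.98 RPKM in PA and 3.76, 3.92 and 3.54 RPKM in control. PA 3 was the highest library and the groups did not overlap. Means were 6.93 ± 0.930 RPKM in PA and 3.74 ± 0.191 RPKM in control (SD, n = 3 each), with a log2 fold change of 0.74 ± 0.13 (limma adjusted p = 0.0293), the highest among the members tested. Its paralog CCNE2, cyclin E2, was at 30.2, 27.3 and 32.0 RPKM in PA and 28.5, 28.98 and 29.7 RPKM in control, with the control values inside the range of PA. The log2 fold change of CCNE2 was 0.03 (-0.07 with libraries rescaled to a common sum), with a 95% confidence interval of -0.20 to 0.27, and its difference from that of CCNE1 was not tested.

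The directions of these 6 genes held when any 1 library was left out, but the calls mostly did not. Without PA 3 the members past the threshold were PLK1, AURKA, ASPM, CCNE1 and, newly, CCNB1, where 2.57% of all genes passed. Without PA 1 only PLK1 passed, where 1.43% of all genes did. Without PA 2, control 1, control 2 or control 3, limma called 0 members at an adjusted p of 0.05, while 9, 8, 8 and 9 members were lower and 3, 4, 5 and 2 higher at an unadjusted p of 0.05. In those 4 fits 8.11%, 7.46%, 10.9% and 9.65% of all genes were lower and 10.1%, 9.8%, 12.9% and 10.3% higher at that p. Few genes of any kind passed after adjustment, with 10, 15, 78 and 80 calls among 14159 genes. The log2 fold change over the 6 fits lay between -0.80 and -0.64 for PLK1, -0.57 and -0.53 for AURKA, -0.92 and -0.71 for ASPM, -0.58 and -0.44 for ANLN, -0.68 and -0.51 for RBL1, and 0.64 and 0.80 for CCNE1. Their limma adjusted p ranged from 0.0288 to 0.182.

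**Figure D2:**
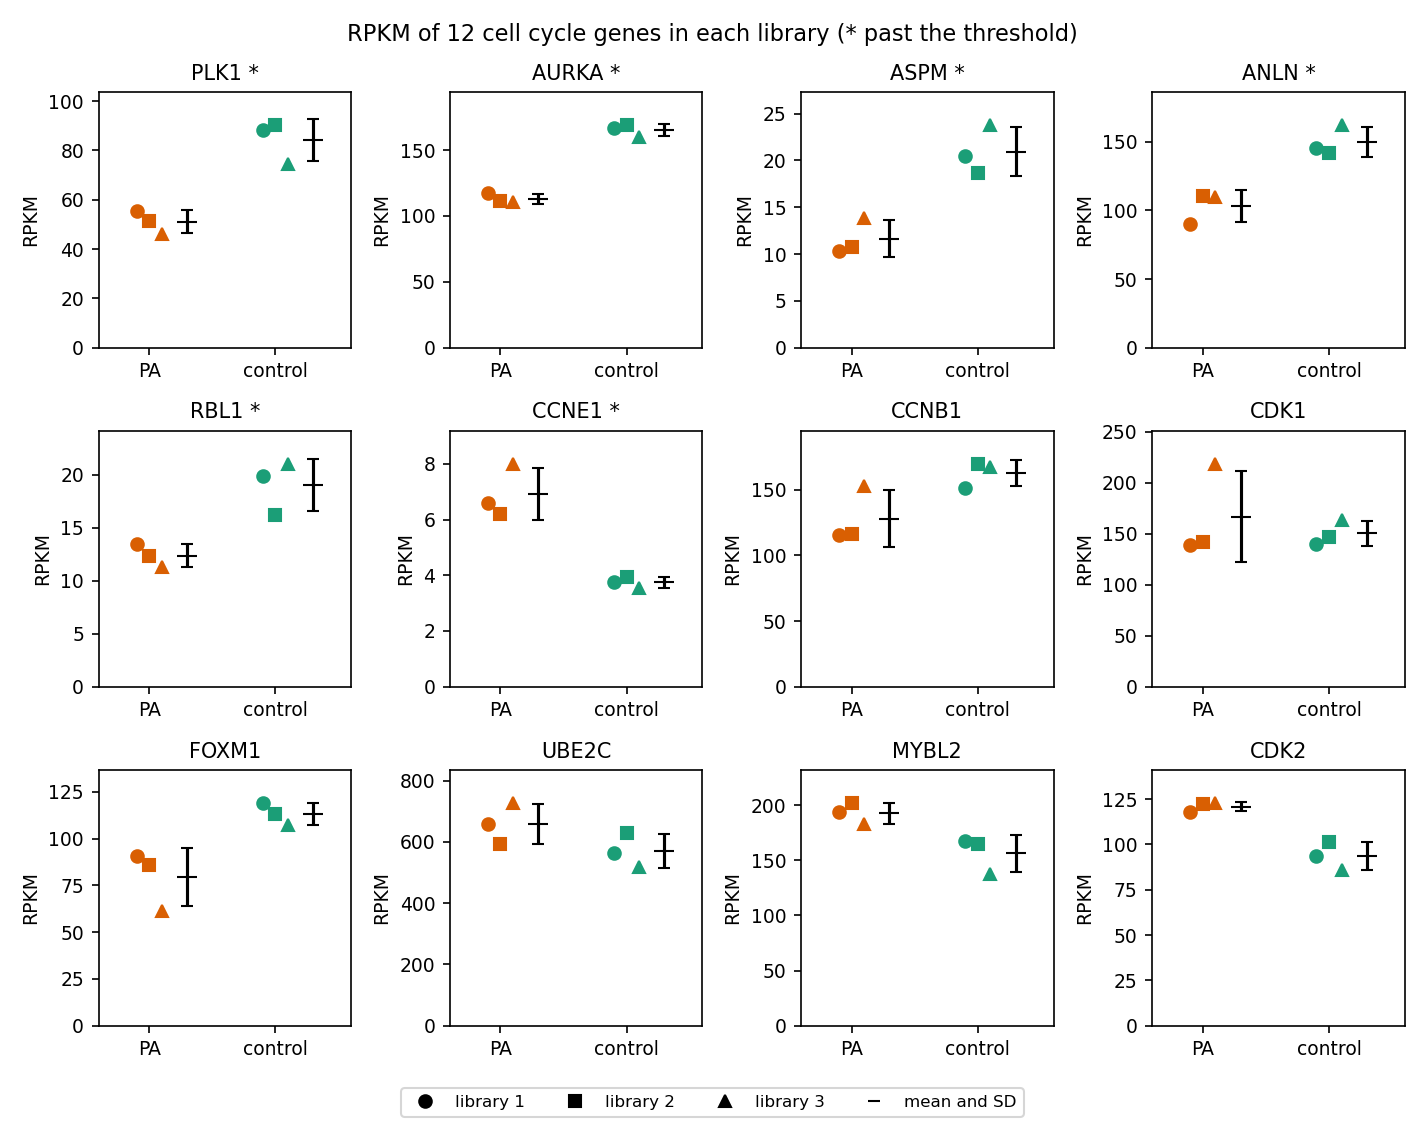
RPKM (y axis, from 0) of 12 genes in the 3 PA and the 3 control libraries, with mean and SD beside the points. The 6 genes with a star passed the threshold, and CCNB1, CDK1, MYBL2 and CDK2 were added after their values were seen. PLK1, AURKA, ASPM, ANLN and RBL1 have all PA libraries under all control libraries, CCNE1 the reverse, and CDK1 stands out by PA 3 at 218.1 RPKM.

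Among the cyclins and kinases of G1 and S phase, 1 of 8 tested members passed, CCNE1, where 4.81% of all genes tested did. The median log2 fold change of the 8 was 0.10. CDK2, the partner of cyclin E, was at 117.8, 122.2 and 122.6 RPKM in PA and 93.7, 101.0 and 85.7 RPKM in control. The groups did not overlap, yet the gene missed the threshold (log2 fold change 0.37 ± 0.10, limma adjusted p = 0.0726). CDK4, with a log2 fold change of 0.16, also had all PA libraries above control. CCND1, cyclin D1, was at 143.2, 121.8 and 86.5 RPKM in PA and 175.4, 145.9 and 141.8 RPKM in control. The groups overlapped by PA 1, and the log2 fold change was -0.42 ± 0.19 (limma adjusted p = 0.206). CCND3, cyclin D3, was at 0.20. CDC25A, the phosphatase that activates CDK2, was at -0.10 and CDK6 at -0.26, and neither passed.

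The CDK inhibitors among the members had values of both signs and limma called 0 of 3 after adjustment. At an unadjusted p of 0.05, 1 was higher and 0 lower, where 13.5% and 12.4% of all genes tested were. CDKN1C, which encodes p57, was low, at 2.40, 2.61 and 3.80 RPKM in PA and 1.95, 1.73 and 1.07 RPKM in control. No library of one group overlapped the other, and the log2 fold change was 0.61 ± 0.20 (limma adjusted p = 0.111). CDKN2D, which encodes p19INK4D, was at 0.26 and CDKN2C, which encodes p18INK4C, at -0.12 on the log2 scale.

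Of the 9 E2F and pocket protein genes only RBL1 passed, where 4.81% of all genes tested did. The median log2 fold change of the 9 was -0.07. RBL2, which encodes the pocket protein p130, was at 29.6, 24.3 and 24.2 RPKM in PA and 21.4, 21.4 and 24.8 RPKM in control. Its log2 fold change of 0.20 did not pass (limma adjusted p = 0.341), and so p107 and p130 transcripts had opposite signs, a difference that was not tested. The activating factors E2F1, E2F2 and E2F3 had log2 fold changes of 0.17, -0.05 and -0.20, the repressor E2F4 of -0.07, and the atypical repressors E2F7 and E2F8 of 0.03 and -0.14. TFDP1, the dimer partner of E2F factors, was at -0.19. E2F1 lay higher in all PA libraries, and E2F3 and TFDP1 lower in all PA libraries. Of the 54 members, 6 lay wholly higher and 13 wholly lower in PA, that is, without overlap between the groups, where 16.7% and 15.9% of all genes tested did so.

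The factors of the later wave had log2 fold changes of different sign. FOXM1, the forkhead factor that drives mitotic genes, was at 90.7, 86.0 and 61.6 RPKM in PA and 118.9, 113.2 and 107.2 RPKM in control. All PA libraries were below control and PA 3 was far the lowest, with a log2 fold change of -0.52 ± 0.15 (limma adjusted p = 0.0871). MYBL2, which encodes B-MYB, was at 193.8, 201.6 and 182.6 RPKM in PA and 167.5, 164.6 and 137.1 RPKM in control, a log2 fold change of 0.30 ± 0.11 (limma adjusted p = 0.142). LIN9, a MuvB core subunit, was at 4.36, 4.98 and 6.66 RPKM in PA and 7.49, 6.54 and 8.20 RPKM in control (log2 fold change -0.42, limma adjusted p = 0.150).

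Of cyclins A, B and F and CDK1, limma called 0 of 5 after adjustment. At an unadjusted p of 0.05, 2 were lower and 0 higher, where 12.4% and 13.5% of all genes tested were. CCNF, cyclin F, a subunit of a ubiquitin ligase, was at 13.9, 13.98 and 10.5 RPKM in PA and 17.6, 18.3 and 15.3 RPKM in control, a log2 fold change of -0.39 ± 0.14 (limma adjusted p = 0.131). CCNB1, cyclin B1, was at 115.2, 115.9 and 152.9 RPKM in PA and 151.7, 169.4 and 167.3 RPKM in control, a log2 fold change of -0.36 ± 0.13 (limma adjusted p = 0.147). PA 3 was level with control 1, and without PA 3 the gene passed, at -0.49 ± 0.09 (limma adjusted p = 0.0496). CCNB2, cyclin B2, was at -0.05 and CCNA2, cyclin A2, at -0.17.
CDK1, the kinase that cyclins A and B share, was at 139.4, 142.2 and 218.1 RPKM in PA and 140.4, 146.4 and 164.0 RPKM in control. Only PA 3 was high, and the sign of its log2 fold change of 0.12 turned to -0.09 without that library.

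Of the regulators of CDK phosphorylation, limma called 0 of 5 after adjustment. At an unadjusted p of 0.05, 1 was lower and 0 higher, where 12.4% and 13.5% of all genes tested were. CDC25B, a phosphatase that activates CDK1 in G2, was at 61.8, 65.8 and 54.2 RPKM in PA and 76.4, 81.0 and 69.7 RPKM in control. It had no overlap and a log2 fold change of -0.32 ± 0.11 (limma adjusted p = 0.134), while its relative CDC25C was at 0.10. The inhibitory kinases WEE1 and PKMYT1 were at -0.26 and 0.11, and CDKN3, a phosphatase that acts on CDKs, at 0.20.

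Of 8 mitotic kinases and partners, PLK1 and AURKA fell and 7 had negative log2 fold changes, with a median of -0.29. Of all genes tested 52.5% were negative, and 1.97% were lower past the threshold. AURKA's activator TPX2 was at 135.6, 146.7 and 154.2 RPKM in PA and 160.5, 161.6 and 176.8 RPKM in control (log2 fold change -0.19, limma adjusted p = 0.266). In the chromosomal passenger complex, no subunit passed and differences between subunits were not tested. Its scaffold INCENP and its targeting subunit CDCA8 (borealin) were at -0.39 and -0.41, both without overlap and both short of the threshold, with limma adjusted p = 0.190 for INCENP and 0.0640 for CDCA8.
Its kinase AURKB was at 141.0, 138.2 and 141.1 RPKM in PA and 137.3, 159.1 and 123.6 RPKM in control. The PA values of AURKB lay inside the range of control, with a log2 fold change of 0.01 (-0.10 with rescaling) and a 95% confidence interval of -0.26 to 0.27. BIRC5 (survivin), the fourth subunit, was at -0.13, and PLK4, the kinase of centriole duplication, at -0.11.

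Anaphase regulators had 0 of 7 past limma at an adjusted p of 0.05 and also 0 at an unadjusted p of 0.05. Of all genes tested, 12.4% were lower and 13.5% higher at that unadjusted p. ESPL1, separase, the protease that cuts cohesin, was at 24.1, 16.8 and 13.7 RPKM in PA and 23.5, 21.8 and 23.7 RPKM in control (log2 fold change -0.36, limma adjusted p = 0.264). The PA libraries ranged widely, with PA 1 above all control libraries. PTTG1, which encodes its inhibitor securin, was at 269.8, 278.4 and 375.8 RPKM in PA and 269.1, 316.3 and 265.7 RPKM in control, a log2 fold change of 0.11 (-0.001 with rescaling, -0.05 without PA 3). UBE2C, the ubiquitin-conjugating enzyme of the APC/C, was the most abundant member, at 657.6, 593.7 and 725.5 RPKM in PA and 562.7, 628.7 and 518.6 RPKM in control (log2 fold change 0.21, limma adjusted p = 0.307).
The activators of the APC/C, CDC20 and FZR1 (CDH1), were at -0.07 and -0.02, its subunit ANAPC1 at -0.22 and its inhibitor FBXO5 (EMI1) at 0.11. The sign of FZR1 turned to 0.17 and that of FBXO5 to -0.09 without PA 3.

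Among the 6 genes of spindle, chromosome and furrow structure, ASPM and ANLN fell, where 1.97% of all genes tested were lower past the threshold. PRC1, which bundles the central spindle, was at 199.2, 194.0 and 192.0 RPKM in PA and 189.7, 184.6 and 205.1 RPKM in control, with a 95% confidence interval of the log2 fold change of -0.20 to 0.23. ECT2, the activator of RhoA in cytokinesis, was at -0.21 and TOP2A, the topoisomerase that untangles chromosomes, at -0.14. MKI67, the proliferation marker Ki-67, was at 42.3, 36.7 and 20.4 RPKM in PA and 39.5, 33.1 and 39.6 RPKM in control. PA 3 alone was low, and the log2 fold change of -0.23 turned to 0.08 without it.

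**Figure D3:**
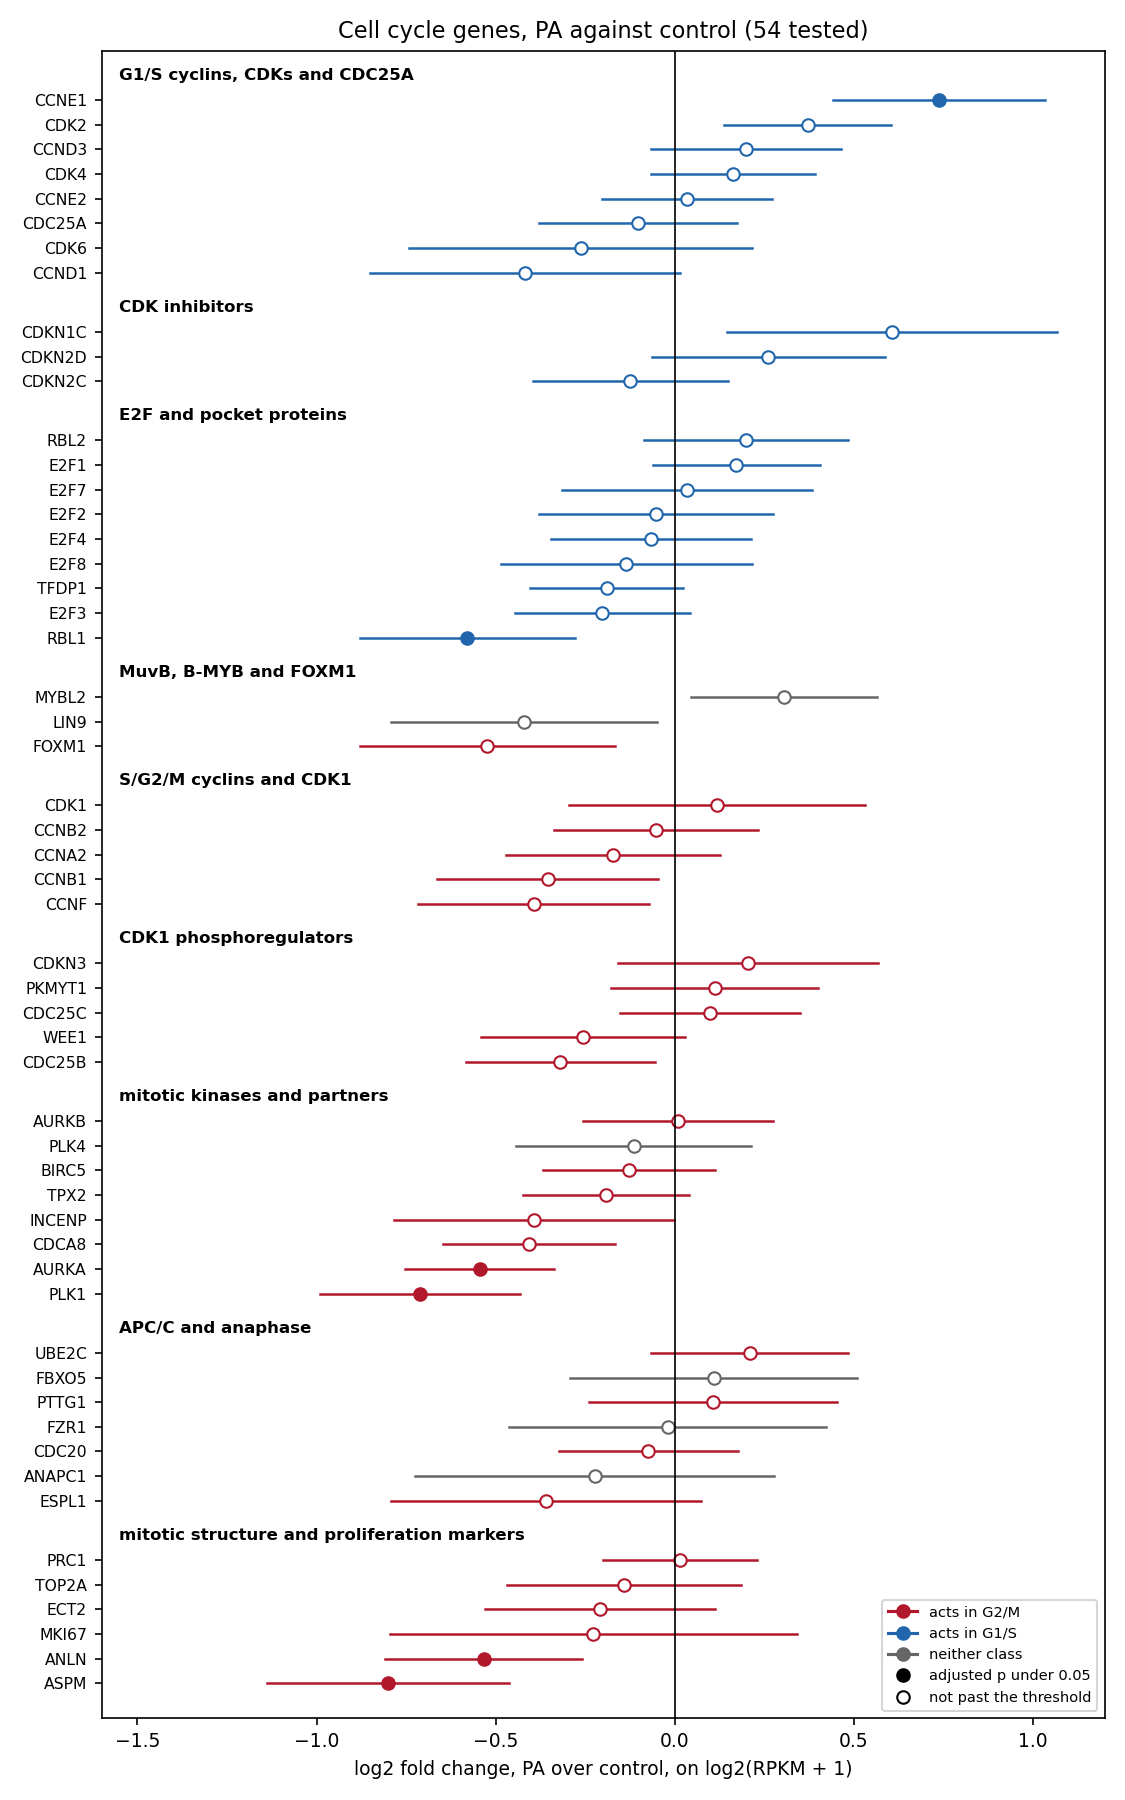
Log2 fold change of PA over control (x axis) with 95% confidence intervals for the 54 tested members, grouped by role. Filled points are the 6 members past the threshold, and 34 of the 54 points lie below 0, where 52.5% of all genes tested did.

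Set side by side by the phase in which the product acts, 28 G2/M members had a median log2 fold change of -0.20 and 20 tested G1/S members one of -0.009, where the median of all genes tested was -0.019. Of the G2/M members 20 of 28 were negative, where 52.5% of all genes tested were. Past the threshold 4 G2/M members were lower and 0 higher, where 1.97% and 2.84% of all genes tested were. At an unadjusted p of 0.05 the G2/M members had 10 lower and 0 higher, where 12.4% and 13.5% of all genes tested were lower and higher. Of the G1/S members 10 of 20 were negative, 1 was lower and 1 higher past the threshold. At an unadjusted p of 0.05 the G1/S members had 1 lower and 3 higher. The 6 members put in neither class, MYBL2, LIN9, PLK4, FZR1, FBXO5 and ANAPC1, had a median of -0.07. With classes by the phase in which the transcript peaks, the medians were -0.18 for 28 G2/M and 0.03 for 13 G1/S members. The G2/M class was then nearly the same set, in which PLK4 took the place of WEE1.

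The gap between the classes was not of equal size in the PA libraries. Relative to the control mean, the median of log2(RPKM + 1) over G2/M members was -0.16 in PA 1, -0.23 in PA 2 and -0.10 in PA 3, and lay between -0.02 and 0.00 in the control libraries. Over G1/S members it was 0.09 in PA 1, 0.001 in PA 2 and -0.07 in PA 3, and between -0.06 and 0.03 in the control libraries. PA 3 thus showed nearly no gap between the medians, and its G2/M members were the most widely spread, with quartiles at -0.56 and 0.07. All genes tested were also spread most widely in PA 3, with quartiles at -0.34 and 0.26, against -0.18 and 0.24 in PA 1 and -0.23 and 0.20 in PA 2. The difference in median fold change between the classes was -0.19 with all libraries and -0.10 without PA 1.

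**Figure D4:**
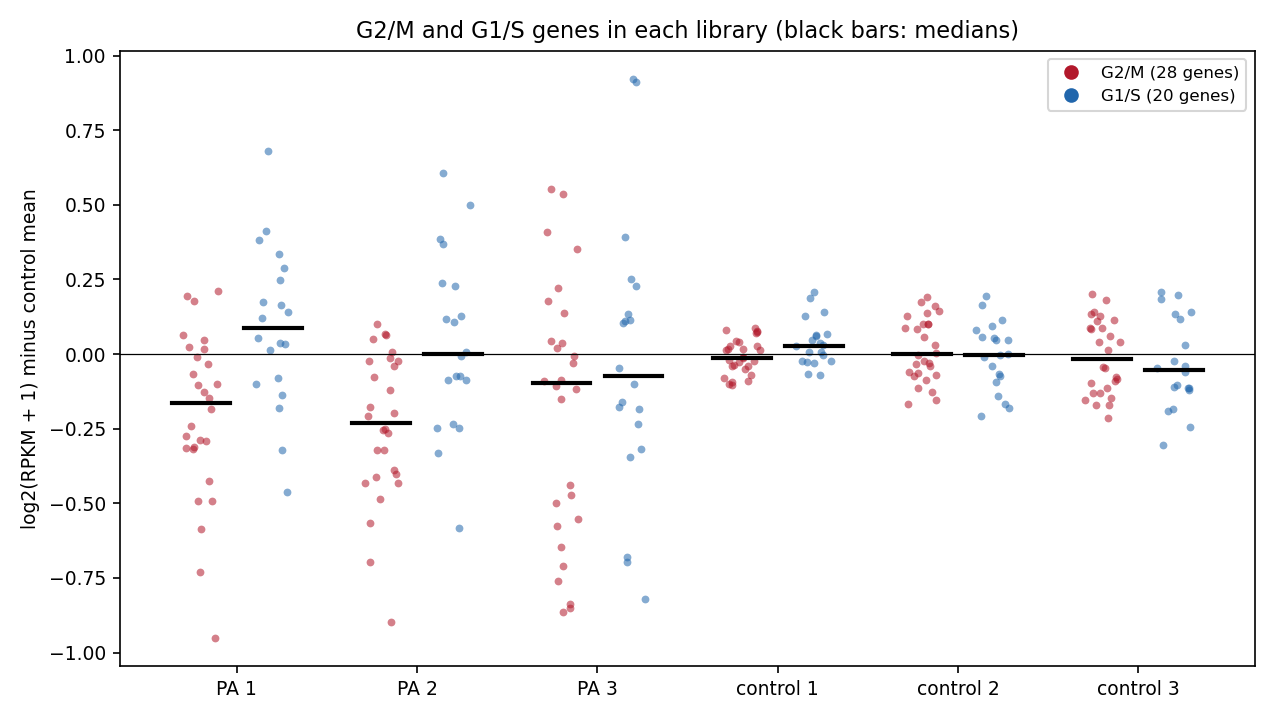
Each point is 1 gene in 1 library, as log2(RPKM + 1) minus the control mean (y axis), for 28 G2/M and 20 G1/S genes, with black bars at the medians. The G2/M bars lie at -0.16, -0.23 and -0.10 in PA 1, PA 2 and PA 3, and the G2/M points are the most widely spread in PA 3.

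Fold changes within the group went with transcript length. Across the 54 members Spearman's rho between log2 fold change and median annotated length was -0.57, and it was -0.30 across the 13481 tested genes with a length. These genes come from the same 6 libraries and are not independent replicates. Of the 14 G2/M members with transcripts longer than 2660 nt, the median over members, 13 were negative, with a median of -0.29, while the 14 shorter ones had 7 negative and a median of -0.02. G1/S members split the same way: 6 of the 9 longer ones were negative, with a median of -0.10, and 4 of the 11 shorter ones, with a median of 0.17. PLK1 and AURKA, at 2227 and 2157 nt, belong to the shorter ones, and ASPM, ANLN and RBL1, at 6132, 4724 and 4454 nt, to the longer. After a length and GC trend fitted over all genes was removed from each library, PLK1 was at -0.75, AURKA at -0.51, ASPM at -0.60, ANLN at -0.37, RBL1 at -0.43 and CCNE1 at 0.69, and all 6 passed.
That fit called more genes of every kind. Among the members 10 were lower, where 6.93% of all genes were, and 4 higher, where 7.95% were. FOXM1, CCNF, CDC25B, INCENP and CDCA8 joined the lower ones, and CDK2, MYBL2 and RBL2 the higher ones. The medians were then -0.12 for G2/M and 0.04 for G1/S members.

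In PA 3 the members departed from PA 1 and PA 2 along both GC content and transcript length. The difference between PA 3 and the mean of PA 1 and PA 2, in log2(RPKM + 1), was above 0.3 for 11 members and below -0.3 for 11. Those above included CDK1 (0.63), FBXO5 (0.60) and CDKN3 (0.53) and had a median GC content of 42.1% and a median length of 2129 nt, and those below included MKI67 (-0.92), CDK6 (-0.62) and CCND1 (-0.60) and had medians of 57.3% and 4283 nt. Across the 28 G2/M members Spearman's rho between this difference and GC content was -0.77, across the 20 G1/S members it was 0.10, and across the 13481 tested genes with a value it was -0.31. With length, rho was -0.38 across G2/M members, -0.62 across G1/S members and -0.38 across all these genes.

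**Figure D5:**
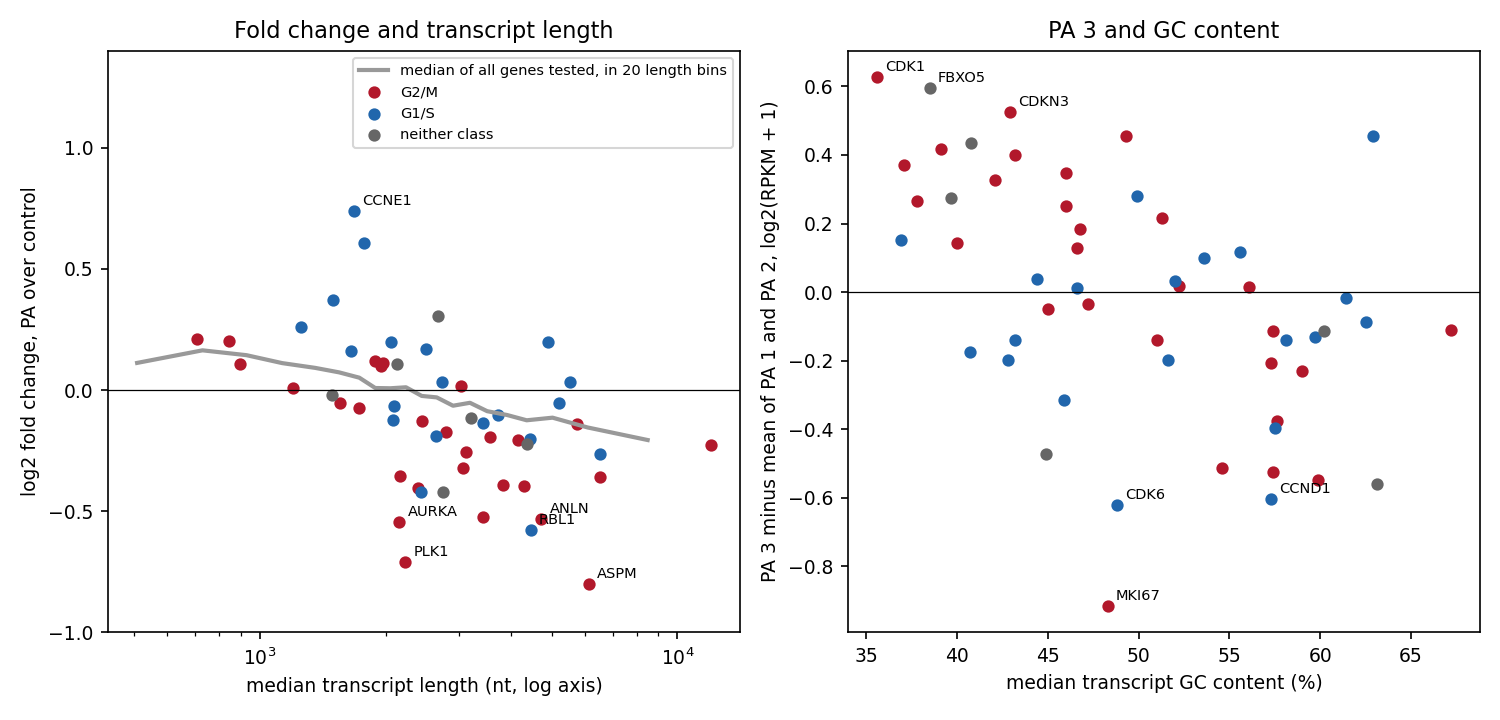
Left, log2 fold change of PA over control (y axis) against median transcript length in nt (x axis, log scale) for the 54 members, with the median of all tested genes as a grey line. Right, PA 3 minus the mean of PA 1 and PA 2 in log2(RPKM + 1) (y axis) against transcript GC content in % (x axis); members of low GC such as CDK1 lie high and MKI67 lies lowest, at -0.92.

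Levels of the members spanned a wide range. Of the 55, 16 had a mean of at least 100 RPKM over all libraries, led by UBE2C, PTTG1 and PRC1, and 8 had a mean below 10 RPKM, among them CCNE1, CDKN1C, LIN9 and CDK6. Exons of 13 members overlap another listed gene with a mean of at least 1 RPKM, for example CCNA2 with EXOSC9 and FZR1 with MFSD12, mostly on the opposite strand. Whether counting used strand is not stated. If it did not, reads within the overlapping stretches cannot be assigned to either gene of a pair. For pairs on the same strand this holds in any case. Without those 13 genes the median log2 fold change was -0.22 for 22 G2/M members and -0.07 for 15 G1/S members. Of the 6 members past the threshold, ANLN is among the 13, through KIAA0895, at a mean of 4.35 RPKM.

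Other genes of the same pathway were mostly short of the threshold. Of all genes tested, 2.84% passed it higher in PA and 1.97% lower. Of 5 further CDK inhibitor and pocket protein genes 1 rose, CDKN1A, which encodes p21, at 138.5, 132.0 and 124.6 RPKM in PA and 97.0, 93.9 and 84.9 RPKM in control (log2 fold change 0.51 ± 0.10, limma adjusted p = 0.0352). For CDKN2A, the gene of p16 and p14ARF, the log2 fold change was 0.53, short of the threshold (limma adjusted p = 0.0781). Of 7 further E2F, DP and MuvB genes 2 rose and 0 fell. E2F5, a repressive E2F, was low, at 3.23, 2.28 and 3.24 RPKM in PA and 1.5, 1.0 and 1.22 RPKM in control, a log2 fold change of 0.80 ± 0.17 (limma adjusted p = 0.0411).
TFDP2, a dimer partner of E2F factors, was at 48.7, 48.4 and 52.9 RPKM in PA and 38.6, 31.4 and 27.4 RPKM in control, a log2 fold change of 0.62 ± 0.14 (limma adjusted p = 0.0464). Limma called 0 of 10 tested cyclin and CDK partners, 0 of 14 further APC/C genes and 0 of 10 further G2/M genes at an adjusted p of 0.05. At an unadjusted p of 0.05 they had 1, 1 and 2 lower and 0, 1 and 0 higher. Of all genes tested, 12.4% were lower and 13.5% higher at that p. The 2 values furthest from 0 within each of these lists were those of MNAT1 (0.31), an assembly factor of the CDK-activating kinase, CUL1 (-0.29), a cullin, CDC27 (-0.54), an APC/C subunit, UBE2S (0.48), an APC/C enzyme, GTSE1 (-0.55), a microtubule-associated protein, and DLGAP5 (-0.37), a spindle protein.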

How the data were processed

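Messenger RNA libraries of AC16 cells were compared, 3 PA and 3 control. The authors deposited 1 table per library with gene identifier, gene name and RPKM with 2 decimals. Per the submitters' processing notes, the tools were HISAT2, RSEM, StringTie, fastp and FastQC and the build was hg19; their roles and versions are not given there. Of 29638 rows, 28828 carry an Ensembl identifier and 28379 matched GENCODE 29, which is built on another assembly, so only its transcript lengths, GC contents and exon overlaps were used. Lengths and GC contents are medians over protein-coding transcripts tagged basic and covered 95.2% of tested genes. RPKM are not counts, so log2(RPKM + 1) was tested two-sided and without covariates by limma 3.58.1 under R 4.3.3, with eBayes set to a mean-variance trend, over 14159 genes with a mean of at least 1 RPKM, with Benjamini-Hochberg adjustment over all of them and a threshold of 0.05. The fit was checked on simulated data with independent noise in each gene. Those data lacked the shared length and GC trends, so the check does not cover them. Exact permutation was not used, since 3 libraries a group allow no p under 0.1. Promoter sequences are from RefSeq (GRCh38.p14). For 15 members with several windows a match in any window counted. Relative depth is approximate and comes from the modal ratio of low RPKM values in each pair of libraries. Members were named for every comparison, with values per library for those past the threshold, for the largest change in each role with none past it and for the 3 most abundant; CDK1, CDK2, CCND1, CCNB1, CCNE2, MYBL2, LIN9, RBL2, TPX2, AURKB and MKI67 were given per library after their values were seen. The members, the phase classes and the other lists were chosen with earlier results of these data known. Alternatives covered pseudocount, filter, scaling, variance model, replicate block, each library left out, threshold, phase classes and the length and GC trend.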

Additional observations from a re-analysis of the deposited data

How the results depend on the processing

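With all genes considered, 681 passed, and 72 passed with no filter on low values, 98 with the replicate number as a block and 2107 with the length and GC trend removed (10 to 364 with 1 library left out). Members lower in PA were 5, and 0 without the filter, 3 with eBayes without trend, 2 with the block and 10 with the trend removed (0 to 4 with 1 library left out). Members higher in PA were 1, and 0 without the filter or with the block, 4 with the trend removed and 2 at an adjusted p of 0.1 (0 to 1 with 1 library left out). Without the filter 29638 rows entered the adjustment. At an unadjusted p of 0.05 limma then had 12 members lower and 4 higher, where 8.08% of those rows were lower and 7.83% higher. ASPM and PLK1 passed in the block fit. Whether the replicate numbers pair the libraries is not known, and 3 libraries a group are too few to decide it. Deviations from the group means of same-numbered libraries correlated at 0.157, -0.014 and 0.037. PA 1 correlated best with control 1, whereas PA 2 correlated with control 1 at 0.052 and PA 3 with control 2 at 0.121.

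The median of the G2/M members, -0.20, was -0.31 with rescaling to a common sum, -0.25 with quantile normalization and -0.12 with the trend removed (-0.24 to -0.16 with 1 library left out). That of the G1/S members, -0.009, was -0.11 with rescaling (-0.06 to 0.03 with 1 library left out). Rescaling moved the median of all genes to -0.11 and the share of calls higher in PA to 39.0%, from 59.0%. The difference between the classes was -0.19 (-0.25 to -0.10 with 1 library left out, and -0.10 without PA 1).

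None of the 6 called members changed sign in any setting. RBL1 did not pass with rescaling. Of 54 members 16 changed sign in some setting. With rescaling this held for CCNE2 (-0.07), E2F7 (-0.066), CDC25C (-0.003), AURKB (-0.098), PTTG1 (-0.001) and PRC1 (-0.091). With quantile normalization it held for AURKB (-0.079), FZR1 (0.021), PTTG1 (-0.022) and PRC1 (-0.111), and with the trend removed for E2F2 (0.011), PKMYT1 (-0.087), PLK4 (0.007), AURKB (-0.128), PTTG1 (-0.01) and TOP2A (0.044). With 1 library left out the log2 fold change ranged from -0.017 to 0.094 for CCNE2, -0.142 to 0.08 for E2F2, -0.161 to 0.016 for E2F4, -0.093 to 0.137 for E2F7, -0.168 to 0.025 for CCNB2, -0.09 to 0.231 for CDK1 and -0.206 to 0.003 for PLK4. It ranged from -0.077 to 0.104 for AURKB, -0.137 to 0.166 for FZR1, -0.09 to 0.229 for FBXO5, -0.045 to 0.193 for PTTG1, -0.431 to 0.077 for MKI67 and -0.016 to 0.059 for PRC1. The cause was not tested. Read depth is unknown, so no counting interval can be given.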
